A study of Xenopus laevis with 8 samples.

Results

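Genes for SWI/SNF, CHD and ISWI chromatin remodellers, with relatives of the INO80 family and hells, were followed in tadpole brains with reduced neurod2. The members were 37 gene symbols, matched to the table by symbol after the L or S ending and any copy number were removed. They found 62 of the 41881 rows, and all 62 had enough reads to be tested. Of the symbols, 26 were present as both homeologues and 10 as a single row, while no row matched actl6b, the neuronal actin-related subunit, so the exchange of actl6a for actl6b was not analysed here. The L and S homeologues are the copies of a gene that Xenopus laevis, an allotetraploid frog, holds on its L and S subgenomes.

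Chromatin remodellers use ATP to slide, space, exchange or evict nucleosomes, and so set how open the DNA of a gene or enhancer is. SWI/SNF complexes come as canonical BAF, PBAF and non-canonical BAF, which are each built around the ATPase SMARCA4 or SMARCA2. CHD and ISWI enzymes work in complexes of their own, such as NuRD for CHD3 and CHD4, and HELLS helps to maintain DNA methylation in dividing cells. In mouse, neural progenitors that leave the cell cycle exchange subunits of BAF, with ACTL6A, SS18 and PHF10 or DPF2 giving way to ACTL6B, SS18L1 and DPF1 or DPF3.

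Whole brains at stage NF 47 were sequenced as 4 CRISPant and 4 control pools, with 4 brains in each pool and all animals from a single sibship. CRISPants were F0 tadpoles injected at the one-cell stage with Cas9 of Streptococcus pyogenes loaded with an sgRNA that shifts the reading frame of both neurod2 homeologues, so their brains mix edited and unedited cells. Controls were siblings given Cas9 without the sgRNA and are labelled wild type, so all 8 pools carried Cas9. The authors counted reads of stranded mRNA libraries per gene, and total counts ranged from 20985937 to 25937707 in control pools and from 18945762 to 25509904 in CRISPant pools.

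The targeted gene was checked first. neurod2.L was at 36.9, 37.1, 38.6 and 32.9 CPM in control pools 1, 2, 4 and 5 and 28.5, 31.1, 26.2 and 18.98 CPM in CRISPant pools 3, 4, 7 and 9, where CPM is the read count scaled by library size with TMM factors. The highest CRISPant pool was lower than the lowest control (log2FC -0.47 ± 0.12, edgeR adjusted p = 0.00748). Here log2FC is the log2 fold change of CRISPant over control brains, given ± its standard error, and a value given for a row with no unit is its log2FC. neurod2.S was at 52.2, 48.2, 45.4 and 40.3 CPM in the control pools and 39.04, 45.7, 35.05 and 26.7 CPM in the CRISPant pools, the groups overlapped, and the gene did not pass the test (log2FC -0.34 ± 0.16, edgeR adjusted p = 0.111). Neuron markers were summed to 6358 to 6875 CPM in control pools and none of 8 rows for lens and retina markers had enough reads to be tested. All p-values rest on the spread among pools of siblings from a single cross.

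Remodeller genes rose more often than they fell in CRISPant brains, and most changes were small. Of 62 rows, 25 rose, 9 fell and 28 did not pass an adjusted p under 0.05 in edgeR's quasi-likelihood test, adjusted over all 25171 genes tested. That is 40.3% higher and 14.5% lower, against 21.7% and 20.8% of all genes tested, and the median log2 fold change was 0.10 against -0.0022 over all genes. Together 54.8% of the rows changed, where 42.4% of all genes did. All genes were not matched to the remodeller rows for read count, and the part of read count in these shares was not tested. In 34 rows (54.8%) the groups did not overlap, compared with 37.8% of all genes, and CRISPant pools were above in 25 of these rows and below in 9, directions seen in 19.4% and 18.5% of all genes. Summed over all rows, the level was 6045 to 6194 CPM in control pools and 6592 to 6733 CPM in CRISPant pools. Abundant genes weigh most in this sum. In it chd4 had means of 647 CPM in control and 856 CPM in CRISPant pools, smarca5 141 and 256 CPM and smarcc1 330 and 414 CPM. Of the 34 rows that changed, 29 (85.3%) changed by less than 1.5-fold, a size seen in 70.9% of all genes that changed. Of 62 rows, 4 rose and 1 fell by more than 1.5-fold, against 7.13% and 5.22% of all genes. A change of more than 2-fold was found for smarca1.L, smarca5.S, hells.L and bicral.S, which is 4 of 62 rows against 3.58% of all genes.

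**Figure D1:**
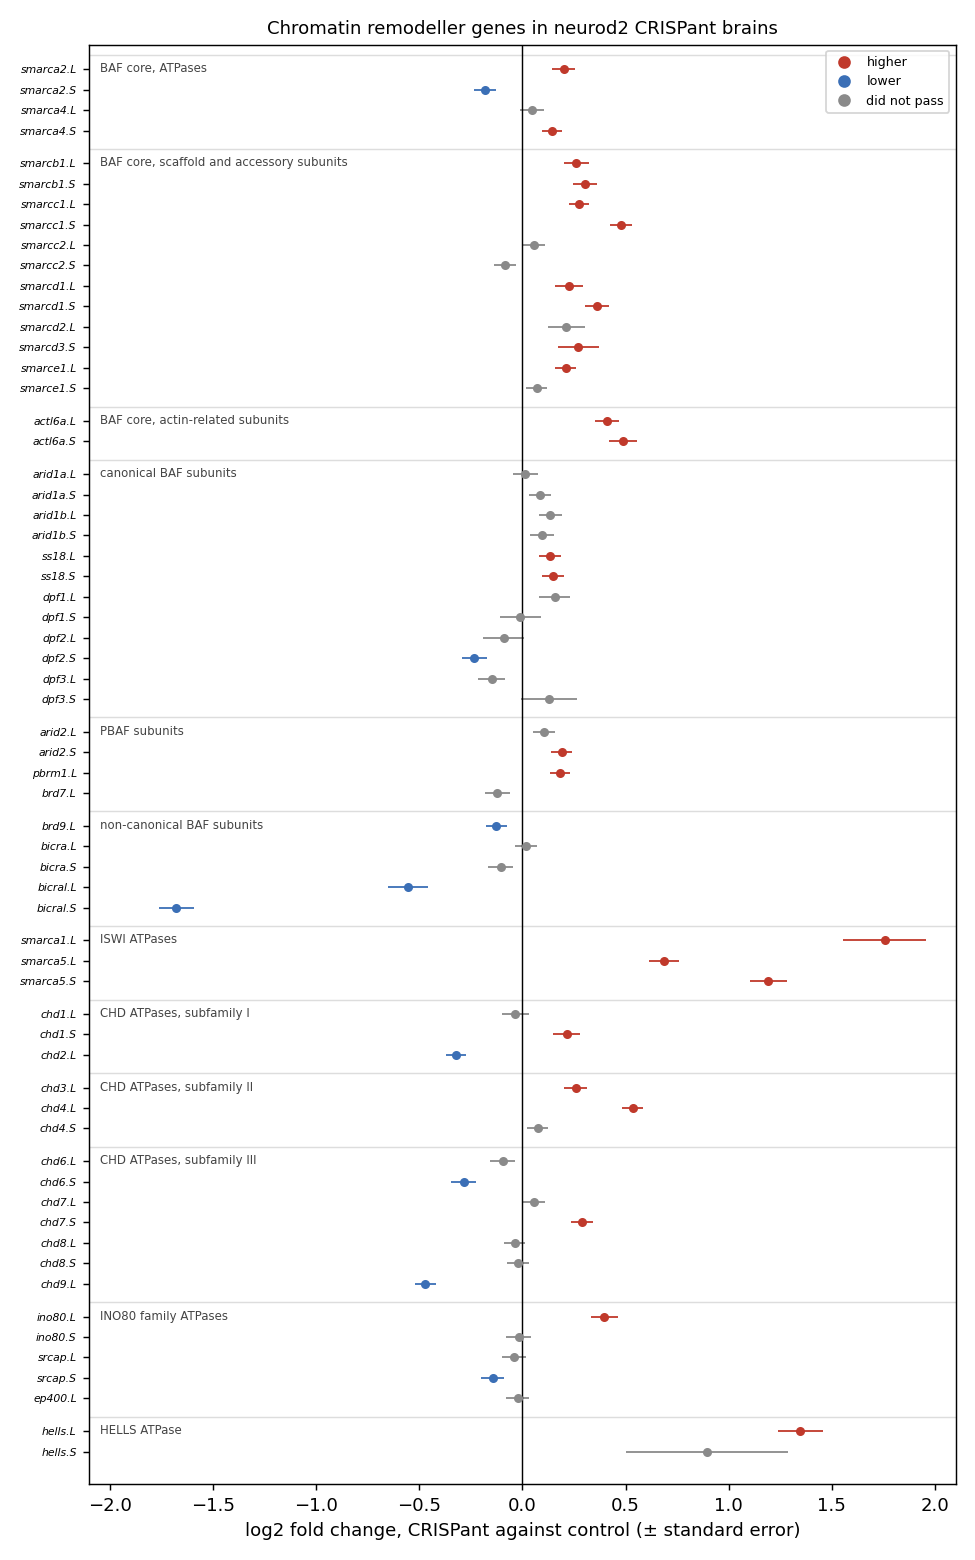
Log2 fold change of each of the 62 remodeller rows in CRISPant against control brains, by role, with bars for the standard error from edgeR (4 pools a group). Red points rose, blue points fell and grey points did not pass the test; smarca1.L, hells.L and smarca5.S lie farthest to the right (1.76, 1.35 and 1.19) and bicral.S farthest to the left (-1.68).

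Markers of dividing cells rose in CRISPant brains. For the counts that follow, 21.7% of all genes tested rose and 20.8% fell. All 18 tested rows of 10 proliferation markers rose (2 other rows had too few reads), with a summed level of 483 to 605 CPM in control pools and 1065 to 1358 CPM in CRISPant pools. Of 35 tested rows for neural progenitor markers, 14 rose and 2 fell, and their sum went from 1782 to 1942 CPM to 2061 to 2297 CPM. Many of these rows were copies of hes5 genes, and some of the rises were among them. The 2 rows that fell were sox9.L (-0.36) and sox9.S (-0.45), and no copy of sox2, pax6 or hes1 passed. For 18 rows of neuron markers, 1 rose and 5 fell, and the sums overlapped at 6358 to 6875 and 6299.6 to 7034 CPM. Of 8 rows for astroglia markers, 2 rose and 4 fell. glul.L, glul.S and aldh1l1.L fell with -0.89, -0.86 and -1.72, while fabp7.L rose with 0.43, and the sums overlapped at 2625 to 2957 and 2754 to 2985 CPM. Of 12 rows for cartilage and meninges markers, 5 rose and 3 fell, with overlapping sums of 336 to 409 and 378 to 439 CPM. The rises were in the collagen genes col1a1.L (1.38), col1a1.S (0.84), col1a2.L (0.70), col3a1.L (0.69) and col3a1.S (0.83). The falls were in col1a2.S (-0.35) and in the same 2 sox9 rows, because sox9 was in both this list and that of the progenitor markers. Of 12 rows for myelinating glia markers, 1 rose and 4 fell, with overlapping sums of 198 to 242 and 193 to 217 CPM. Sums of red blood cell markers (906 to 1389 and 688 to 1862 CPM) overlapped as well, as did those of endothelium, skeletal muscle and microglia markers. The part of these cells in the results was not tested, and in bulk RNA more cells of a type cannot be told apart from more RNA per cell.

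All 3 rows for ISWI ATPases, smarca5.L, smarca5.S and smarca1.L, rose, where 21.7% of all genes tested did. SMARCA5 is the motor of complexes that space nucleosomes, also behind replication forks, and SMARCA1 is its close relative. smarca5.S, at chromosome 1S from 47808714 to 47832459 (RefSeq, assembly v10.1), was at 42.4, 36.9, 47.8 and 46.1 CPM in the control pools and 88.4, 89.04, 107 and 111 CPM in the CRISPant pools. The groups lay well apart, and the gene rose by 2.28-fold (log2FC 1.19 ± 0.091, edgeR adjusted p = 1.4e-07). smarca5.L, at chromosome 1L from 62822074 to 62840079, was at 96.5, 93.1, 103 and 98.9 CPM in the control pools and 144, 138, 169.6 and 178 CPM in the CRISPant pools. It rose by 1.61-fold (log2FC 0.68 ± 0.072, edgeR adjusted p = 7.0e-07), again without overlap. With the counts of both copies summed, smarca5 rose by 1.81-fold (log2FC 0.86, adjusted p = 6.6e-07 from edgeR).

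smarca1 was present as a single L row, at chromosome 8L from 41743120 to 41802215, with 15 to 89 reads per pool. Its values were 1.05, 0.881, 1.26 and 0.705 CPM in the control pools and 3.02, 3.51, 3.23 and 3.47 CPM in the CRISPant pools. Despite the low level every CRISPant pool lay above every control pool, and edgeR fitted a rise of 3.38-fold (log2FC 1.76 ± 0.20, edgeR adjusted p = 7.6e-07). In mouse, Smarca1 is expressed in neurons after they leave the cell cycle, whereas Smarca5 is high in dividing progenitors. The ratio of smarca1 to smarca5 on the log2 scale was -6.49, -6.56, -6.43 and -6.92 in the control pools and -6.05, -5.82, -6.22 and -6.19 in the CRISPant pools, a difference of 0.53 between group means. The pseudocount of 0.5 CPM added before the ratio was taken is large beside the level of smarca1.L, and without it the difference was 0.94.

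hells, which encodes a Snf2 ATPase needed for DNA methylation at repeats, rose in its L copy. hells.L, at chromosome 7L from 36564262 to 36590089, was at 11.7, 9.04, 10.3 and 9.40 CPM in the control pools and 22.4, 23.7, 25.9 and 31.5 CPM in the CRISPant pools. All CRISPant pools were higher than all controls, with a rise of 2.55-fold (log2FC 1.35 ± 0.11, edgeR adjusted p = 1.1e-08). hells.S, at chromosome 7S from 28997322 to 29019394, was at 7.55, 2.36, 8.77 and 7.57 CPM in the control pools and 16.8, 8.68, 12.7 and 11.2 CPM in the CRISPant pools. Control pool 2 stood low, CRISPant pool 4 lay within the range of the controls, and the copy did not pass the test (log2FC 0.90 ± 0.39, edgeR adjusted p = 0.116). It passed without control pool 2 (edgeR adjusted p = 0.0151, log2FC 0.62, within 0.0151 to 0.232 over the pools left out). It also passed in the fit that left out robust estimation (edgeR adjusted p = 0.00913). The sum of both copies rose, with a log2FC of 1.19 (adjusted p = 7.2e-05 from edgeR). cdca7, which encodes the activator of HELLS, rose in both copies, with 1.26 for cdca7.L and 1.08 for cdca7.S. So did its relative cdca7l, with 1.01 for cdca7l.S and 0.42 for cdca7l.L, whose groups overlapped.

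**Figure D2:**
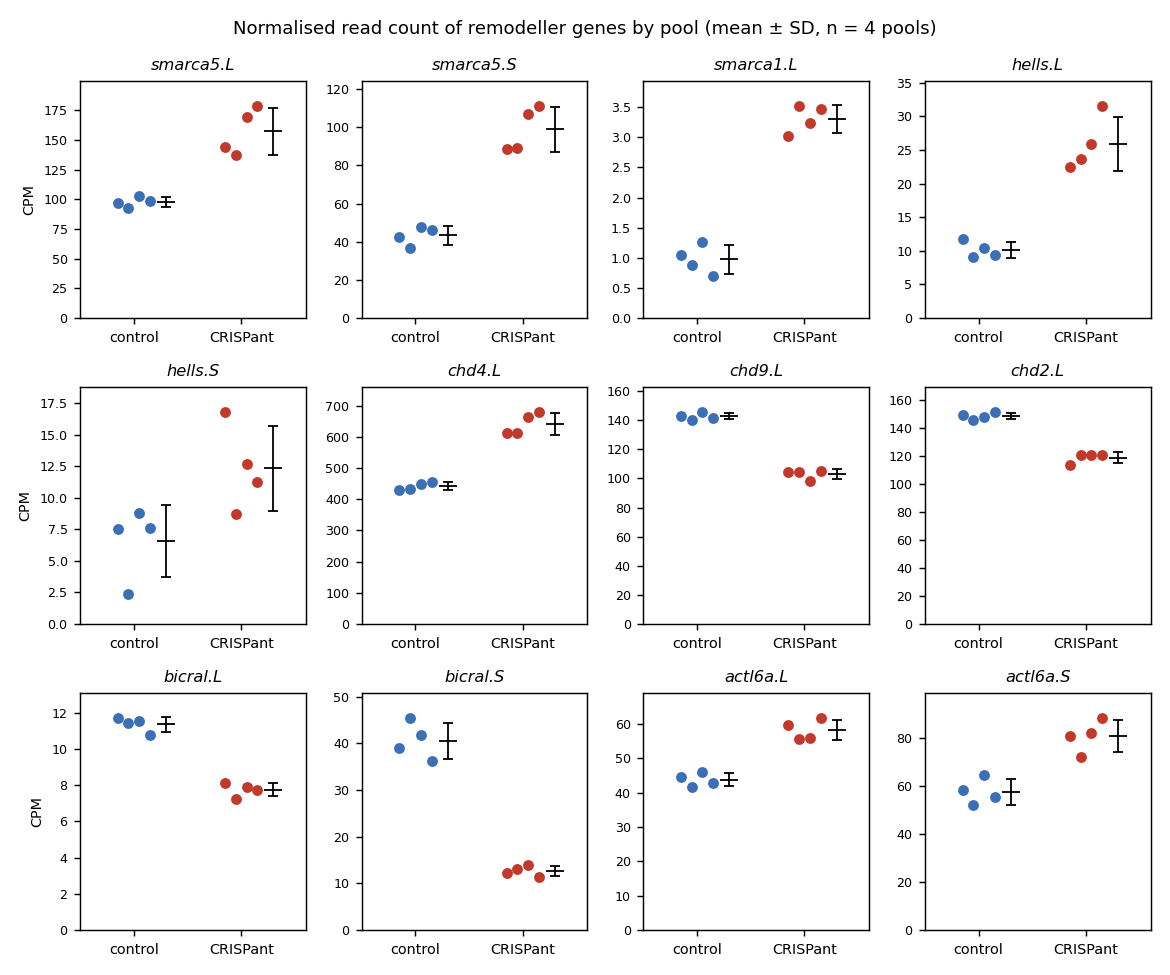
Normalised read count (CPM, axis from 0) of 12 remodeller rows in each pool, with control pools in blue, CRISPant pools in red and the mean ± SD beside them (n = 4 pools a group). The groups lie apart in every panel except that of hells.S, where CRISPant pool 4 (8.68 CPM) is below control pool 4 (8.77 CPM).

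Most rows grouped as core subunit genes of SWI/SNF rose modestly. This group was not limited to subunits found in every form of SWI/SNF. Of 18 rows for core subunits, 12 rose, 1 fell and 5 did not pass, which is 66.7% higher and 5.56% lower against 21.7% and 20.8% of all genes, with a median log2FC of 0.22 and no change above 1.5-fold. smarcc1, a scaffold subunit known as BAF155, rose in both copies. smarcc1.S was at 80.6, 81.97, 83.2 and 83.2 CPM in the control pools and 114, 110.0, 112 and 123 CPM in the CRISPant pools, with the groups far apart (log2FC 0.48 ± 0.052, edgeR adjusted p = 3.9e-07). smarcc1.L was at 242, 248, 255 and 245 CPM in the control pools and 296, 295, 301 and 307 CPM in the CRISPant pools, and it rose less (log2FC 0.27 ± 0.047, edgeR adjusted p = 9.2e-05). Its paralogue smarcc2 (BAF170) did not pass in either copy, at 0.055 for smarcc2.L and -0.084 for smarcc2.S.

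Among other core subunits, smarcb1, which binds the acidic patch of the nucleosome, rose with 0.26 for smarcb1.L and 0.30 for smarcb1.S. smarcd1, a BAF60 subunit that contacts transcription factors, rose with 0.23 for smarcd1.L and 0.36 for smarcd1.S. The HMG-box subunit gene smarce1.L rose with 0.21, while smarce1.S had 0.070, short of the threshold (edgeR adjusted p = 0.279). The single row of smarcd3 rose with 0.27 (adjusted p = 0.032 from edgeR), a call lost without control pools 2 or 5 or CRISPant pools 3 or 9 (adjusted p from 0.0171 to 0.107). smarcd2.L, at 0.21, did not pass (adjusted p = 0.0646), but did so without CRISPant pool 3 (adjusted p = 0.0263 from edgeR).

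The SWI/SNF ATPases changed little. smarca4.S rose (log2FC 0.14 ± 0.048, edgeR adjusted p = 0.0202), with means of 402 ± 5.72 CPM in control and 443 ± 14.2 CPM in CRISPant pools (SD, n = 4), and lost the call without control pool 1 or CRISPant pool 7 (edgeR adjusted p from 0.0201 to 0.0578 over the pools left out). smarca4.L had 0.047 and did not pass. The copies of smarca2 went opposite ways. smarca2.L was at 71.97, 69.8, 66.8 and 73.8 CPM in the control pools and 82.9, 85.5, 81.2 and 74.7 CPM in the CRISPant pools, and it rose (log2FC 0.20 ± 0.057, edgeR adjusted p = 0.00736). smarca2.S was at 102, 102, 101 and 106 CPM in the control pools and 87.5, 95.7, 89.6 and 90.1 CPM in the CRISPant pools, and it fell (log2FC -0.18 ± 0.051, edgeR adjusted p = 0.00704). Groups did not overlap for either copy, but with the copies summed smarca2 stood at a log2FC of -0.015, short of the threshold (edgeR adjusted p = 0.82).

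Neuronal forms of BAF subunits were then compared with progenitor forms. The progenitor subunit gene actl6a (BAF53a) rose in both copies. actl6a.L was at 44.6, 41.6, 45.98 and 42.8 CPM in the control pools and 59.6, 55.6, 55.8 and 61.7 CPM in the CRISPant pools (log2FC 0.41 ± 0.059, edgeR adjusted p = 1.2e-05). actl6a.S, at chromosome 5S from 95430006 to 95443898, was at 58.3, 51.9, 64.5 and 55.2 CPM in the control pools and 80.6, 72.1, 81.8 and 88.04 CPM in the CRISPant pools (log2FC 0.49 ± 0.070, edgeR adjusted p = 1.3e-05). In neither copy did the groups overlap, and summed actl6a rose by 1.37-fold.

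ss18, the progenitor form of a BAF subunit, rose by 9.83% and 10.8% in its L and S copies. ss18.L was at 84.2, 84.9, 78.2 and 84.99 CPM in the control pools and 91.1, 93.8, 93.5 and 86.5 CPM in the CRISPant pools (log2FC 0.14 ± 0.053, edgeR adjusted p = 0.0457). ss18.S was at 86.6, 84.4, 85.6 and 82.9 CPM in the control pools and 97.3, 95.5, 95.9 and 87.4 CPM in the CRISPant pools (log2FC 0.15 ± 0.053, edgeR adjusted p = 0.0285). The groups did not overlap in either copy, and CRISPant pool 9 was the lowest CRISPant pool for both. Both calls were sensitive to single pools. When pools were left out ss18.L passed only without CRISPant pool 9 (edgeR adjusted p from 0.0302 to 0.143), and it lost the call with no filter on low counts (0.0659). ss18.S lost its call without control pools 2 or 5 or CRISPant pools 3, 4 or 7 (adjusted p from 0.012 to 0.0843 from edgeR). Summed, ss18 rose with a log2FC of 0.14 (adjusted p = 0.0185 from edgeR).

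The neuronal subunit gene dpf1 (BAF45b) was not shown to change. dpf1.L was at 20.99, 23.97, 23.1 and 24.3 CPM in the control pools and 25.7, 25.9, 23.6 and 27.7 CPM in the CRISPant pools (log2FC 0.16 ± 0.075, edgeR adjusted p = 0.0994). dpf1.S was at 12.9, 15.2, 15.2 and 16.5 CPM in the control pools and 13.2, 14.9, 13.6 and 17.4 CPM in the CRISPant pools (log2FC -0.011 ± 0.099, edgeR adjusted p = 0.941). The groups overlapped in both copies, and the sum of the copies had a log2FC of 0.092 with a standard error of 0.073. dpf2, a broadly expressed relative listed above with the progenitor forms, fell in its S copy. dpf2.S was at 57.6, 55.6, 58.9 and 64.5 CPM in the control pools and 51.5, 46.6, 52.6 and 50.8 CPM in the CRISPant pools (log2FC -0.23 ± 0.061, edgeR adjusted p = 0.00443). With the copies summed dpf2 fell (log2FC -0.20, edgeR adjusted p = 0.00963), whereas actl6a and ss18 rose. dpf2.L had -0.091, dpf3.L -0.15 and dpf3.S 0.13, and none of them passed. Of the neuronal partners outside the member list, ss18l1.L had 0.018 and ss18l1.S -0.049, neither passing, and the progenitor subunit gene phf10 had -0.027 for phf10.L and -0.13 for phf10.S, neither passing.

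Ratios of gene pairs were compared per pool, on log2 CPM of the summed copies, for 12 pairs. All pairs but dpf1 to ss18 are paralogues. In 4 of them the groups did not overlap, each with p = 0.0286 in an exact two-sided permutation test, the smallest p that 4 pools against 4 allow, and adjusted p = 0.0857 over the 12 pairs. No pair passed after adjustment. With that smallest p, none could pass unless the groups were apart in more of the 12 pairs. The ratio of ss18l1 to ss18 was -0.80, -0.74, -0.84 and -0.80 in the control pools and -0.95, -0.93, -0.998 and -0.94 in the CRISPant pools, with a difference of -0.16 between the means, CRISPant minus control. The ratio of smarcc2 to smarcc1 was -0.22, -0.27, -0.19 and -0.15 in the control pools and -0.48, -0.46, -0.62 and -0.62 in the CRISPant pools, and the group means differed by -0.34. The third pair was smarca1 and smarca5, with the values given above, and the fourth chd5 and chd4, given with the CHD genes. By contrast the ratio of dpf1 to ss18 went from -2.13 ± 0.13 to -2.18 ± 0.17 (SD, n = 4 pools each) and the groups overlapped (exact two-sided permutation test, p = 0.6). dpf1 against dpf2 differed by 0.29 and dpf1 against phf10 by 0.18, both with overlapping groups (exact two-sided permutation test, p = 0.0571 and 0.0857). The other 5 pairs also overlapped, with differences from -0.15 for chd3 to chd4 up to 0.084 for dpf3 to dpf2.

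**Figure D3:**
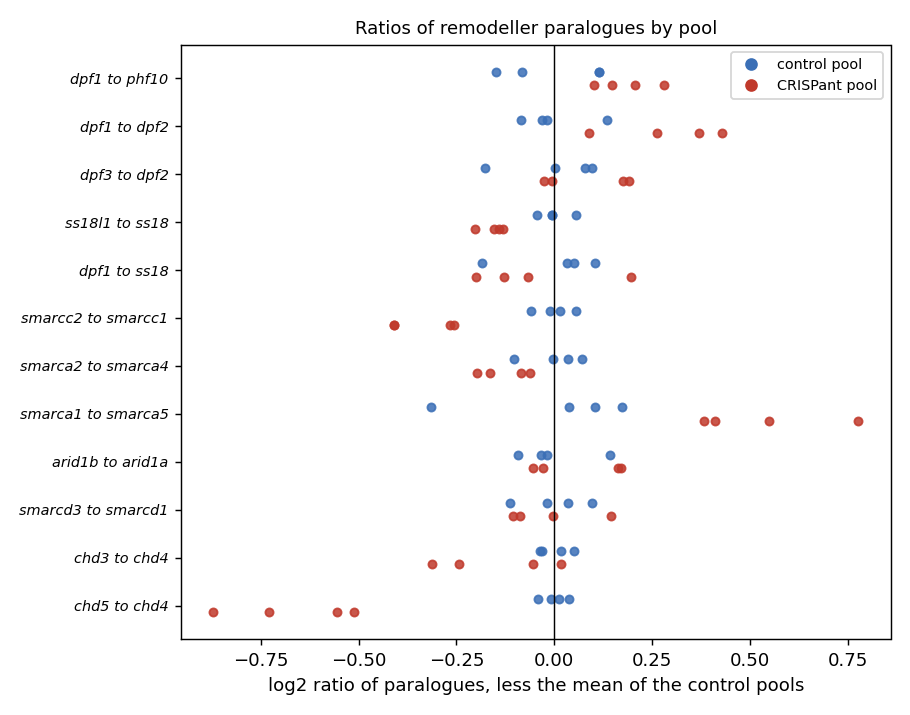
Log2 ratio of 12 pairs of genes in each pool, less the mean of the 4 control pools (control in blue, CRISPant in red). All pairs but dpf1 to ss18 are paralogues. CRISPant pools lie left of all control pools for ss18l1 to ss18, smarcc2 to smarcc1 and chd5 to chd4, with mean differences of -0.16, -0.34 and -0.67, and right of them for smarca1 to smarca5 (0.53, with 0.5 CPM added to each level).

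SWI/SNF subunits outside the core group are given next, by the subtype they were grouped under. A subunit grouped under a subtype was not required to be absent from the others, and differences between the subtypes were not tested. Among 12 rows grouped under canonical BAF, the 2 ss18 rows rose (16.7%) and dpf2.S fell (8.33%), against 21.7% and 20.8% of all genes. Neither copy of arid1a or arid1b, the large DNA-binding subunits, passed the test, with log2 fold changes from 0.014 for arid1a.L to 0.14 for arid1b.L, and arid1b.L passed without CRISPant pool 9 (adjusted p = 0.0173 from edgeR). For PBAF, pbrm1.L, whose protein reads acetylated histones through its bromodomains, rose with 0.18 (edgeR adjusted p = 0.00503). RefSeq places the pbrm1.L row on chromosome 4S, although its symbol ends in L. arid2.S rose with 0.19 (edgeR adjusted p = 0.00526). arid2.L had 0.10 and brd7.L -0.12, and neither passed with all pools. arid2.L passed without control pool 5 (adjusted p = 0.0398) and brd7.L without CRISPant pool 9 (adjusted p = 0.0452, both from edgeR).

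Non-canonical BAF stood out for bicral, whose product and that of bicra are alternative subunits that define this complex. bicral.S, at chromosome 5S from 17716987 to 17745209, was at 39.01, 45.4, 41.7 and 36.3 CPM in the control pools and 12.1, 13.1, 13.99 and 11.4 CPM in the CRISPant pools. The highest CRISPant pool was far below the lowest control pool, and the gene fell to 0.312 of the control level (log2FC -1.68 ± 0.085, edgeR adjusted p = 6.0e-12) and had the smallest p among the 62 rows. bicral.L, at chromosome 5L from 11266444 to 11296641, was at 11.7, 11.5, 11.6 and 10.8 CPM in the control pools and 8.15, 7.26, 7.88 and 7.73 CPM in the CRISPant pools. It fell less, without overlap (log2FC -0.55 ± 0.096, edgeR adjusted p = 9.7e-05). The paralogue bicra did not pass in either copy, at 0.017 for bicra.L and -0.10 for bicra.S. brd9.L, the bromodomain subunit of the same complex, fell with -0.13 (adjusted p = 0.0453 from edgeR), a call kept only without CRISPant pool 4 when pools were left out (adjusted p from 0.0391 to 0.127) and lost with no filter on low counts (0.0976). In all, 3 of the 5 rows grouped under non-canonical BAF fell (against 20.8% of all genes) and none rose, with a median of -0.13. The rows that fell were both copies of bicral and brd9.L. Core subunits and ss18 were counted in other groups, given above.

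Of 13 rows for CHD ATPases, 4 rose (30.8%) and 3 fell (23.1%), near the 21.7% and 20.8% of all genes, and the median log2FC was -0.022. chd4, the main motor of the NuRD deacetylase complex, rose in its L copy. chd4.L, at chromosome 7L from 7859205 to 7885821, was at 429, 434, 450.2 and 456 CPM in the control pools and 611, 612, 663 and 678 CPM in the CRISPant pools. The groups were apart (log2FC 0.54 ± 0.052, edgeR adjusted p = 7.1e-08). chd4.S was at 208, 199.6, 210.3 and 198 CPM in the control pools and 209, 205, 222 and 224 CPM in the CRISPant pools and did not pass (log2FC 0.074 ± 0.051, edgeR adjusted p = 0.255). The single row of chd3, the other common NuRD motor, rose with 0.26 (adjusted p = 7.2e-04 from edgeR).

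chd5, a relative of chd4 that in mammals is found mostly in neurons and is not one of the members, fell in its L copy (-0.51, adjusted p = 2.3e-06 from edgeR) and had -0.088 in its S copy, which did not pass. The log2 ratio of chd5 to chd4 was -1.56, -1.51, -1.53 and -1.48 in the control pools and -2.07, -2.03, -2.25 and -2.39 in the CRISPant pools. It was lower in every CRISPant pool, with a difference of -0.67 between the means, CRISPant minus control.

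Falls were found for chd9, chd2 and chd6. chd9.L, of the subfamily that includes chd7, was at 143, 141, 145 and 142 CPM in the control pools and 105, 104, 98.2 and 105 CPM in the CRISPant pools (log2FC -0.47 ± 0.050, edgeR adjusted p = 2.3e-07). chd2.L, whose human orthologue is mutated in childhood epilepsy, was at 149, 145, 148 and 151 CPM in the control pools and 113, 120.3, 121 and 120.2 CPM in the CRISPant pools (log2FC -0.32 ± 0.049, edgeR adjusted p = 2.4e-05). Both were single rows with narrow groups that did not overlap. chd6.S was at 90.1, 96.6, 90.9 and 91.8 CPM in the control pools and 75.4, 72.5, 84.7 and 70.4 CPM in the CRISPant pools (log2FC -0.29 ± 0.060, edgeR adjusted p = 6.2e-04), while chd6.L had -0.096 and did not pass.

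chd7, whose loss causes CHARGE syndrome in humans, rose in its S copy. chd7.S was at 137, 136, 144 and 124 CPM in the control pools and 163, 165, 171 and 162 CPM in the CRISPant pools (log2FC 0.29 ± 0.054, edgeR adjusted p = 2.2e-04). chd7.L was at 63.8, 64.3, 59.8 and 62.9 CPM in the control pools and 61.7, 63.7, 70.6 and 64.3 CPM in the CRISPant pools and did not pass (log2FC 0.054 ± 0.057, edgeR adjusted p = 0.472). Copies of chd1, a remodeller of transcribed genes, differed likewise. chd1.S was at 29.3, 29.6, 32.4 and 31.3 CPM in the control pools and 32.7, 37.1, 35.2 and 37.1 CPM in the CRISPant pools (log2FC 0.21 ± 0.067, edgeR adjusted p = 0.0135), and chd1.L was at 32.8, 33.01, 32.6 and 32.9 CPM in the control pools and 29.4, 32.7, 34.9 and 31.1 CPM in the CRISPant pools (log2FC -0.034 ± 0.067, edgeR adjusted p = 0.714). Neither copy of chd8, an autism gene in humans, passed, at -0.038 for chd8.L and -0.022 for chd8.S.

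In the INO80 family, which exchanges histone variants such as H2A.Z, 1 of 5 rows rose and 1 fell (20% each), as in all genes (21.7% and 20.8%), with a median of -0.024. ino80.L was at 32.1, 31.5, 31.99 and 31.7 CPM in the control pools and 39.4, 41.8, 40.4 and 46.1 CPM in the CRISPant pools. It rose without overlap (log2FC 0.40 ± 0.064, edgeR adjusted p = 4.4e-05). ino80.S was at 35.4, 37.8, 37.5 and 38.5 CPM in the control pools and 36.1, 37.5, 37.8 and 36.1 CPM in the CRISPant pools, and the groups overlapped (log2FC -0.017 ± 0.060, edgeR adjusted p = 0.846). srcap.S fell with -0.14 (adjusted p = 0.0455 from edgeR), but its groups overlapped and the call held only without control pool 2 or CRISPant pool 7 (adjusted p from 0.0168 to 0.156 over the pools left out). It was also lost with no filter on low counts (adjusted p = 0.0539) and without the robust option (0.0506). srcap.L had -0.043 and ep400.L -0.024, and neither passed.

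L and S copies were compared within each member. In 26 member pairs, both copies changed in the same direction in 7, in opposite directions in 1 (smarca2), only 1 copy passed in 11 and neither in 7. Over all 7427 pairs tested, 22.9% changed together and 2.52% in opposite directions, and 1 copy alone passed in 37.4%. The ratio of L to S itself differed between the groups in 8 of 26 pairs (30.8%), tested by limma, near the 24% of all pairs, and the number was 5 without control pools 1, 2 or 5 or without CRISPant pools 3 or 9. Relative to S, the L copy went up in CRISPant brains for bicral by 1.13 (limma, adjusted p = 4.3e-04), chd4 by 0.46 (adjusted p = 0.00152), ino80 by 0.41 (0.00651) and smarca2 by 0.38 (0.00438) on the log2 scale. It went down for smarca5, with a difference of -0.51 (0.0019), for smarcc1 with -0.20 (0.0303), chd1 with -0.25 (0.0383) and chd7 with -0.24 (0.049). For bicral, the copy that fell more was S, and for smarca5 the copy that rose more was also S. How reads that fit both copies of a pair were counted is not given in the sources used here, so the split of reads between copies is uncertain.

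**Figure D4:**
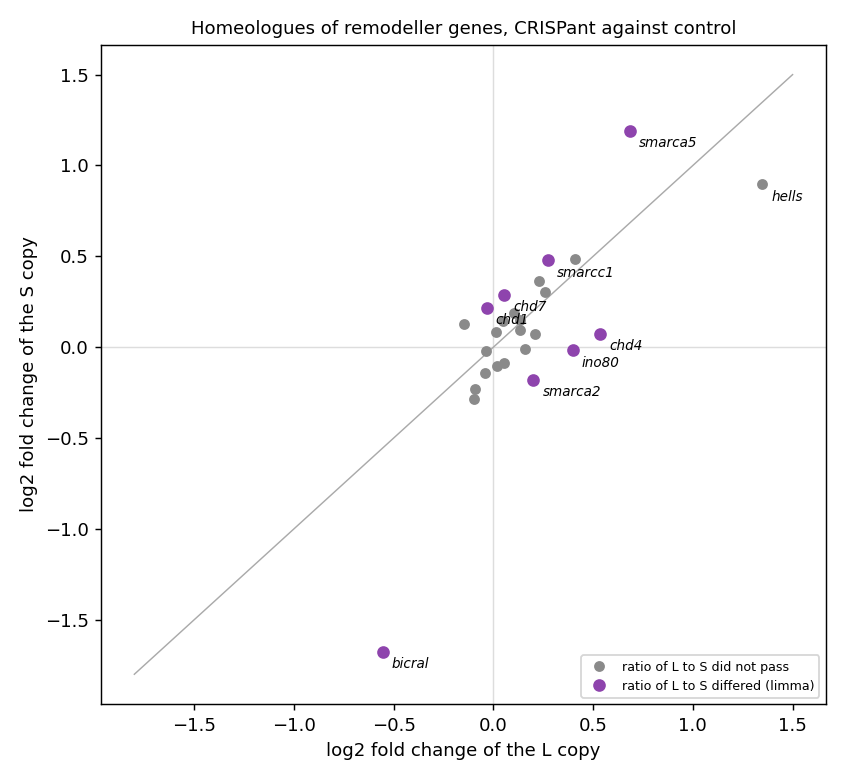
Log2 fold change of the S copy against that of the L copy for 26 member pairs, with the line of equal change. Purple points are the 8 pairs whose ratio of L to S differed between groups (limma), of which smarca2 lies at 0.20 for L and -0.18 for S.

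Partners of the remodellers were read from a list of 66 symbols, not limited to genes that serve these complexes alone, which found 106 rows. Of these, 44 rose (41.5%, against 21.7% of all genes tested) and 11 fell (10.4% against 20.8%), and their median log2FC was 0.11. Of 21 rows for NuRD partners of chd3 and chd4, 12 rose and 3 fell. Those that rose included the histone deacetylase genes hdac1.S at 0.78 and hdac2.L at 0.50 and the histone chaperone gene rbbp4.S at 0.91. Those that fell were gatad2b.L (-0.28), gatad2b.S (-0.35) and mbd2.L (-0.57), and no copy of mta1 or mta2 passed. Among 14 rows for ISWI partners, 7 rose and 3 fell. baz1a.L, which encodes a partner of SMARCA5 in the ACF complex, had 0.59, baz1b.S 0.47 and pole3.L 0.73, all higher. The ISWI partners that fell were baz2a.L (-0.18), baz2b.L (-0.26) and baz2b.S (-0.40).

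Of 13 rows for further SWI/SNF subunits, 5 rose (38.5%) and none fell, against 21.7% and 20.8% of all genes. In either direction 38.5% changed, against 42.4% of all genes. Among those that rose were the BCL7 subunit genes bcl7b.L (0.73), bcl7b.S (0.66), bcl7a.L (0.62) and bcl7a.S (0.42). The level of bcl7b.S was low, with means of 1.24 CPM in control and 1.98 CPM in CRISPant pools, and its groups overlapped. bcl7c.L had -0.0050 and did not pass. Of 44 rows for partners of INO80, SRCAP and EP400, 13 rose (29.5%) and 3 fell (6.82%), against the same 21.7% and 20.8%. Together 36.4% changed, where 42.4% of all genes did. The rows that fell were brd8.L (-0.32), ing3.S (-0.38) and actr6.L (-0.29). znhit1.S, a subunit of the SRCAP complex, rose (log2FC 1.86 ± 0.16, edgeR adjusted p = 2.3e-08), with means of 1.74 ± 0.105 CPM in control and 6.32 ± 1.23 CPM in CRISPant pools (SD, n = 4), and the AAA ATPase genes ruvbl1.S and ruvbl2.S rose with 0.65 and 0.59. Of 10 rows for other Snf2 ATPases, 3 rose (30%) and 2 fell (20%), against 21.7% and 20.8% of all genes. The rises included shprh.S at 0.58 and hltf.L at 0.38, which encode ubiquitin ligases of damaged replication forks. The falls were in chd5.L (-0.51) and ttf2.S (-0.30). All 4 rows for cdca7 and cdca7l rose.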

How the data were processed

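The deposited table holds raw read counts for 41881 genes, which the authors made by mapping single reads from stranded mRNA libraries to XENLA_10.1 with DRAGEN and counting them with FeatureCounts. Strand and multi-mapping settings are not given in the sources used here. Each of the 8 columns was matched to a pool by its library name. Genes were filtered with filterByExpr (minimum count 10), normalised by TMM and fitted in edgeR 4.0.16 (R 4.3.3) with robust quasi-likelihood dispersions and group as the only term and Benjamini-Hochberg adjustment over 25171 genes. A standard error is the log2 fold change divided by the root of its F value.

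Ratios of gene pairs used CPM plus 0.5, and L to S ratios used limma 3.58.1 on log2 CPM with a prior count of 2. Coordinates are those of RefSeq for the v10.1 assembly, where 55 of 62 member rows matched by symbol. The members, the partner and marker lists and the rule for named genes were chosen with earlier results of these data known. By that rule, values per pool were given for the 6 rows in each direction with the smallest p, for actl6a, dpf1 and ss18, and for pairs whose L to S ratio passed. Other rows were given by log2 fold change, and up to 3 partners per role were named. phf10, ss18l1 and chd5.S were named as terms of the ratios. bcl7b.S, bcl7c.L, cdca7l.L, the named progenitor, astroglia and collagen rows and the values per pool of hells.S were added after they were seen. So were mta1, mta2, ttf2.S and the NuRD, ISWI, INO80, SRCAP and EP400 partners that fell. Alternatives were median-of-ratios size factors, DESeq2 1.42.0, leaving the low counts in, a minimum CPM of 1 in 4 pools, non-robust dispersions, summed homeologues and each pool left out. Promoter motifs were not analysed here. Total counts per pool were 18945762 to 25937707.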

Additional observations from a re-analysis of the deposited data

Results flagged for a closer look

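In 148 groups of 4 pools (62 rows and 12 ratios in each condition), 3 had a pool set apart from the others by a gap past Dixon's critical value. Chance flags about 1 in 20 groups. chd2.L was at 113 CPM in CRISPant pool 3, below the 120.2 to 121 CPM of the other CRISPant pools, and its log2 fold change without that pool was -0.30. chd9.L was at 98.2 CPM in CRISPant pool 7, against 104 to 105 CPM in the others, with a log2 fold change of -0.45 without it. ss18.L was at 78.2 CPM in control pool 4, against 84.2 to 84.99 CPM in the other control pools. Without that pool ss18.L had a log2 fold change of 0.11, short of the threshold (edgeR adjusted p = 0.143, within 0.0302 to 0.143 over the pools left out).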

How the results depend on the processing

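Of the 34 remodeller rows that changed, 28 passed without each pool in turn and 31 under all other settings for single rows. The number higher was 22 to 25 and the number lower 7 to 8 over the pools left out, 25 and 9 with DESeq2 or with median-of-ratios size factors, 24 and 7 with no filter on low counts and 26 and 8 without the robust option. Median-of-ratios factors moved the median log2 fold change of all genes by -0.00120. With homeologues summed, 17 remodeller genes were higher and 6 lower, and 27 partner genes were higher in place of 44 rows, where fewer genes were tested. The number of member pairs whose L to S ratio differed was 5 to 7 over the pools left out. From L homeologues alone, 3 of the ratios of gene pairs changed sign, and the cause was not tested. Their differences were -0.056 for dpf3 to dpf2, 0.019 for dpf1 to ss18 and 0.15 for smarca2 to smarca4. Without the pseudocount the smarca1 to smarca5 difference was 0.94 in place of 0.53. Rows that did not pass and changed sign when a pool was left out had log2 fold changes of -0.030 to 0.058 for arid1a.L, -0.015 to 0.031 for bicra.L, -0.079 to 0.0047 for chd1.L, -0.095 to 0.037 for dpf1.S, -0.069 to 0.016 for ep400.L and -0.0013 to 0.086 for smarca4.L. Ratios were given no test when a pool was left out. No paired analysis was possible because the groups share only replicate number 4.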

Other observations

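Within the 4 CRISPant pools the remodeller genes that rose most were not uniform. Pools 7 and 9 held more smarca5.L (169.6 and 178 CPM) than pools 3 and 4 (144 and 138 CPM), and the same order was seen for smarca5.S, chd4.L and hells.L in the values given above. The same pools 7 and 9 had the lower neurod2.L, at 26.2 and 18.98 CPM against 28.5 and 31.1 CPM in pools 3 and 4. They also had the higher sums of proliferation markers, at 1358 and 1331 against 1199 and 1065 CPM, and of red blood cell markers, at 1862 and 1529 against 889 and 688 CPM. smarca1.L did not share this order, with 3.02, 3.51, 3.23 and 3.47 CPM in pools 3, 4, 7 and 9. In the values given above, hells.S, smarcc1.S, actl6a.L and ino80.L did not share it either, while actl6a.S did. These values were chosen after they were seen, and with 4 pools no relation between them was tested.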
